A study of Mus musculus with 10 samples.

Results

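Interferon-stimulated genes are genes whose transcription is switched on by interferons, and 34 of them were followed here in the livers of mice that carry human APOE3 or human APOE4. The set was chosen by gene name, with earlier results of these data known. A gene was read from a probe set whose annotation named that gene alone, and where several did so the probe set with the greatest average over the 10 arrays was taken. In that way 32 of the 34 genes had a value, and 30 reached the average of 4 log2 required for testing, out of 8535 genes and 14732 probe sets tested in all. Mx1 and Mx2 were below that level, and Isg15 and Ifi44 were not analysed here.

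Both groups consisted of 5 female mice on a C57BL/6 background, 3 months old, with 1 liver RNA extract and 1 one-colour Affymetrix array per animal. The APOE3 mice (B6.129P2-Apoetm2(APOE*3)Mae N8) and the APOE4 mice (B6.129P2-Apoetm3(APOE*4)Mae N8) were homozygous for a human gene put in the place of mouse Apoe and driven by the mouse Apoe promoter, so all 10 animals lack mouse apolipoprotein E. Animals of both genotypes were bought as established lines and ate a diet that held 2 g/kg of cholesterol and took 41% of its energy from milk fat. In the labels its length is 6 weeks in one place and 2 months in another. No mouse without a replaced Apoe gene and no animal on ordinary chow was among the samples used here, and the labels name no interferon, virus or other stimulus. The comparison asks whether the hepatic level of these transcripts differs between the APOE4 and APOE3 animals.

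Type I and type III interferons bind receptors whose kinases, JAK1 and TYK2, start a signal that brings a complex with STAT2 and IRF9 into the nucleus. The complex binds a DNA element called the interferon-stimulated response element (ISRE) near the start of many antiviral genes, while interferon gamma acts through a different element, the gamma-activated site (GAS). In liver, hepatocytes as well as Kupffer cells and other non-parenchymal cells respond, and a low level of these transcripts is present without infection. Whole liver RNA mixes all of these cells, so that fewer cells of a type and less RNA per cell cannot be told apart.

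Promoter sequence is a feature that the choice of these genes did not use. RefSeq promoters (GRCm38.p6) were matched by symbol for 25 of the 34 genes, and the 250 bases before the start were searched on both strands for the ISRE written as GAAANNGAAA (TTTCNNTTTC on the other strand). Such a match was present in 12 of 25 (48.0%), namely Bst2, Cxcl10, Gbp2, Gbp3, Ifit1, Ifit3, Igtp, Irgm1, Isg15, Oas1a, Rsad2 and Stat2, compared with 3.46% of all 27025 RefSeq promoters of the same length. The GAS, written TTCNNNGAA, which reads alike on both strands, was found in 5 of 25 (20%), Bst2, Ifit2, Igtp, Irf1 and Oas1a, against 8.13% of all promoters. Windows of 80 bases are shown 5′ to 3′ on the strand of the gene for antiviral genes (Ifit1, Ifit3, Oas1a, Bst2), GTPase genes (Irgm1, Igtp, Gbp2) and the chemokine gene Cxcl10, which between them hold single, spaced and overlapping elements, with every ISRE letter in capitals. The last window, from Irf1, is shown for contrast and has its GAS in capitals and no ISRE match in the searched bases.
Ifit1, chr19:34640759-34640838, plus strand: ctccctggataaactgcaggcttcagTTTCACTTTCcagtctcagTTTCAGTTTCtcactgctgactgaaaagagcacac
Ifit3, chr19:34583355-34583434, plus strand: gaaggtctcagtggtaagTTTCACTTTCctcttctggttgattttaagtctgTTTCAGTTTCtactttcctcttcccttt
Oas1a, chr5:120907526-120907605, minus strand: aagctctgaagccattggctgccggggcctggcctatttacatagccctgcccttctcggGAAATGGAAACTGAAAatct
Bst2, chr8:71537555-71537634, minus strand: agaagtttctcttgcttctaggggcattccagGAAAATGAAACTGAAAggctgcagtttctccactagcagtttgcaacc
Irgm1, chr11:48871421-48871500, minus strand: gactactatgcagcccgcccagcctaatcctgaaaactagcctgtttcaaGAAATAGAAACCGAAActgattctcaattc
Igtp, chr11:58199476-58199555, plus strand: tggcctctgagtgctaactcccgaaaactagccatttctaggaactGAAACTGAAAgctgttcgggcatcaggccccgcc
Gbp2, chr3:142620569-142620648, plus strand: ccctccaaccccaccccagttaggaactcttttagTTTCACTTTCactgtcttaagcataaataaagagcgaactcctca
Cxcl10, chr5:92349058-92349137, minus strand: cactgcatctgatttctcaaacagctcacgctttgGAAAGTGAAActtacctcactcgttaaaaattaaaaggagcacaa
Irf1, chr11:53769888-53769967, plus strand: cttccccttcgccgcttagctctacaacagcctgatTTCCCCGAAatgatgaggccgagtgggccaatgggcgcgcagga

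Ifit1 and Ifit3 each hold a pair of separate elements, which begin 85 and 104 bases before the start in Ifit1 and 122 and 156 bases before it in Ifit3. In Oas1a, Bst2 and Irgm1 the pair overlaps and runs as 1 block, whose nearest copy begins 14, 124 and 24 bases before the start. Igtp, Gbp2 and Cxcl10 have 1 copy each, at 34, 59 and 213 bases. In Bst2 the GAS match, 136 bases before the start, overlaps the ISRE block. A match describes the letters in these windows and does not show that a factor binds there.

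None of the 30 tested genes passed the threshold of an adjusted p under 0.05 (limma, Benjamini-Hochberg over all 14732 probe sets), where 0.0815% of all tested probe sets did. In the same limma fit 1 of 30, Ifi27, was higher in APOE4 at an unadjusted p under 0.05, against a background of 5.53% of all tested probe sets, and 0 of 30 were lower, against 2.46%. The groups overlapped for all 30, while they did not overlap for 2.02% of all tested probe sets. The APOE4 mean was the higher one, by any amount, for 28 of 30 genes, where 60.9% of all tested probe sets had a higher APOE4 mean. The median difference, APOE4 minus APOE3, was 0.20 log2 over the 30 genes and 0.05 over all tested probe sets. Centring each array on the median of its tested probe sets moved these medians to 0.14 and -0.01, with 24 of 30 genes higher against 47.5% of all. Renewed quantile normalization moved them to 0.16 and 0.00, with 26 of 30 against 51.0%.

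Apart from Ifi27, the differences lay between -0.25 log2 (Gbp2) and 0.40 (Ifit1), with adjusted p-values from 0.688 to 0.996 (limma, Benjamini-Hochberg), and the 95% interval of 29 of the 30 differences included 0. The upper end of the interval reached 1 log2 in 4 genes, Ifit1, Oasl2, Ifi27 and Ifi27l2a. These transcripts varied more between animals than most. The median within-genotype SD was 0.41 log2 for the 30 genes and 0.23 for all tested probe sets, and 27 of the 30 lay above the latter. The median SE of a difference was 0.23 against 0.14 log2.

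**Figure D1:**
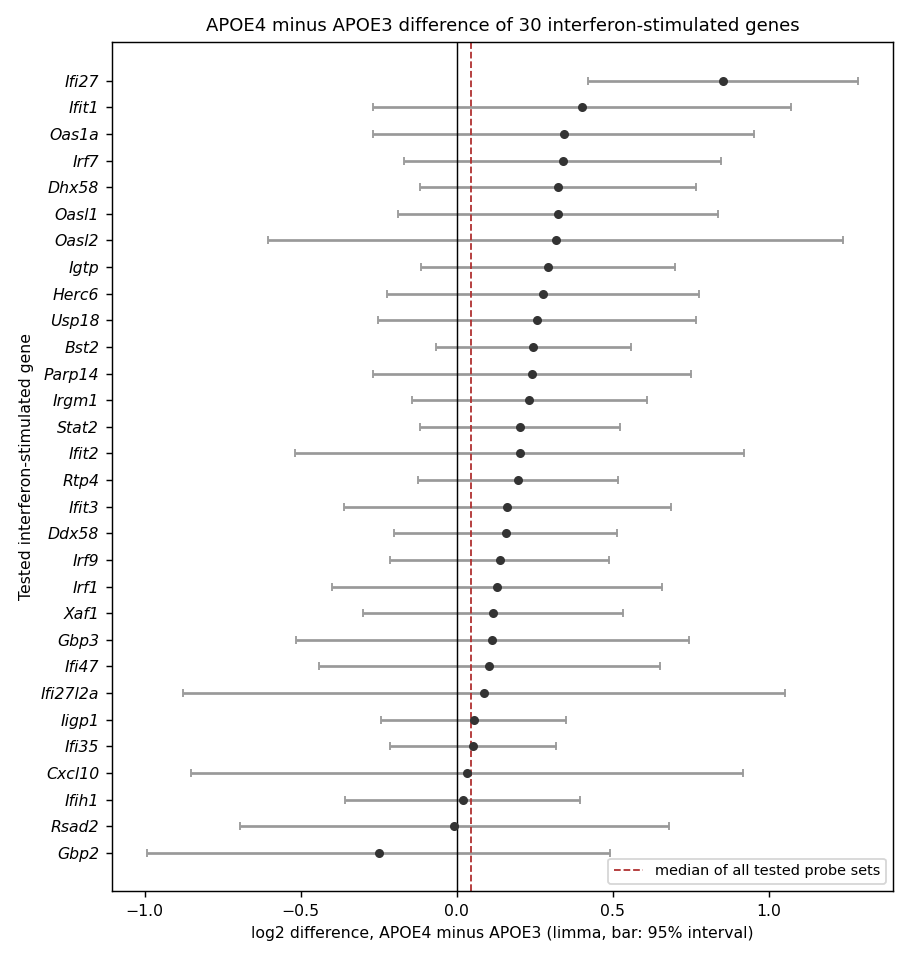
Log2 difference (APOE4 minus APOE3, x axis) of the 30 tested genes, ordered by size, as points with their 95% intervals from the limma fit, 5 mice per genotype; the dashed line is the median of all tested probe sets. The points lie to the right of 0 for 28 genes, and Ifi27, at 0.85, is the gene whose interval (0.42 to 1.28) does not include 0.

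Ifi27, which encodes a small interferon-induced membrane protein, had the largest difference of the set. Here and for the genes that follow, values are log2 and given in the order of replicates 1 to 5. Ifi27 was at 9.20, 9.47, 9.57, 8.997 and 9.29 in APOE3 livers and at 10.59, 10.37, 9.45, 10.23 and 10.15 in APOE4 livers. APOE4 replicates 1, 2, 4 and 5 lay above every APOE3 animal, and APOE4 replicate 3 fell inside the APOE3 range. The means were 9.31 ± 0.23 in APOE3 (SD, n = 5) and 10.16 ± 0.43 in APOE4 (SD, n = 5), a difference of 0.85 ± 0.20 log2 (SE), or 1.81-fold, with an adjusted p of 0.396 (limma, Benjamini-Hochberg; unadjusted p = 0.0012). It stood among the 40 smallest p-values of the 14732 probe sets. The suffix of this probe set (_s_at) is the one Affymetrix uses where probes can match transcripts of more than 1 gene.

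A second Ifi27 probe set (suffix _a_at, used for transcripts of 1 gene) had the same order of groups. It read 8.87, 9.20, 9.24, 9.11 and 8.93 in APOE3 and 10.02, 9.81, 9.17, 9.85 and 9.74 in APOE4, so that replicate 3 was again the single APOE4 animal within the APOE3 range. The difference was 0.65 ± 0.15 log2 (SE; limma adjusted p = 0.396). Without APOE4 replicate 3 the difference of the first probe set was 1.03 log2 with a limma adjusted p of 0.037, and this was the single left-out animal that brought a gene of the set past the threshold. Ifi27 lies on chromosome 12, and its 10 nearest tested neighbours differed by -0.18 to 0.38 log2, 0 of them with an unadjusted p under 0.05 in limma. The neighbours include its relatives Ifi27l2a (0.09) and Ifi27l2b (0.38).

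**Figure D2:**
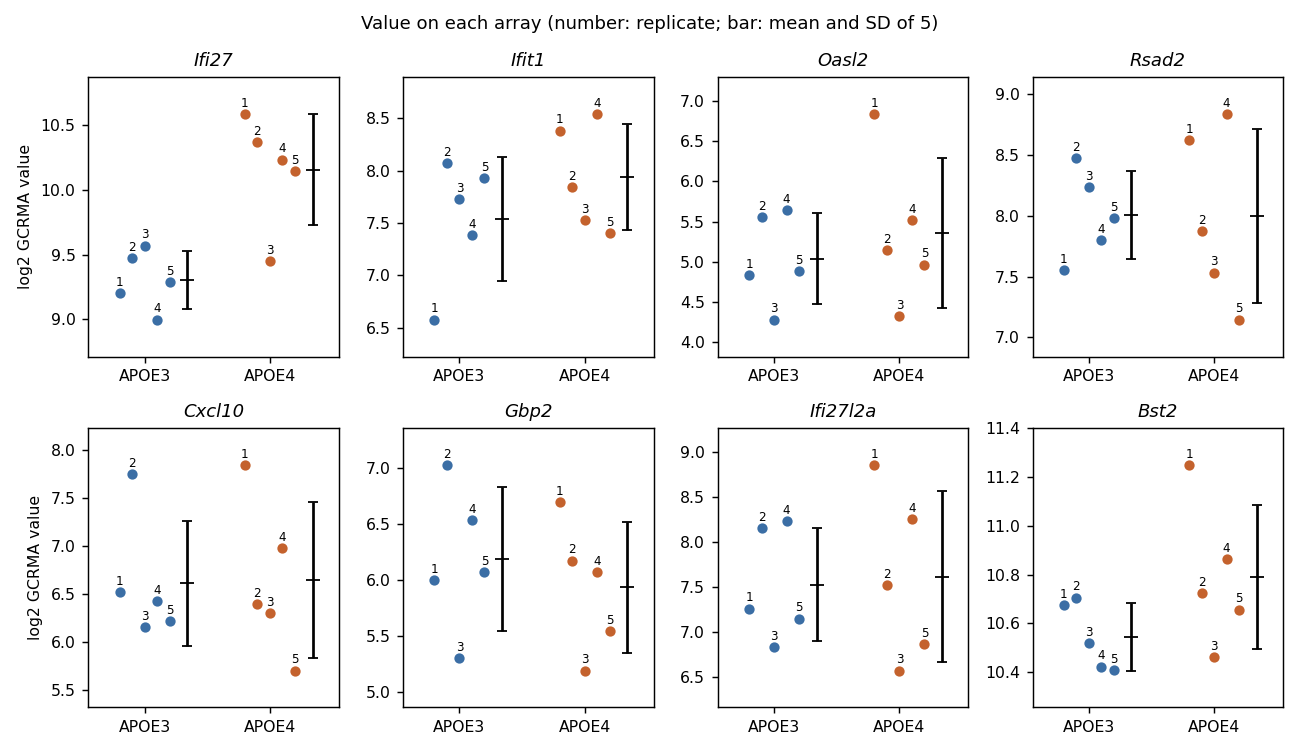
Log2 value (y axis, 1 panel per gene) of Ifi27, Ifit1, Oasl2, Rsad2, Cxcl10, Gbp2, Ifi27l2a and Bst2 in each mouse, as points numbered by replicate, with bars for the mean and SD of 5 mice. In Ifi27, 4 of 5 APOE4 points are above all APOE3 points, and in Oasl2 and Cxcl10 only 1 is.

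Among the cytosolic RNA sensors, which detect viral RNA and start interferon production, 3 of 3 were tested, 3 had a higher APOE4 mean and 0 passed, with a median difference of 0.16 log2. Dhx58 encodes LGP2, a regulator of the other sensors, and was at 4.82, 5.61, 5.17, 5.37 and 5.78 in APOE3 and at 6.15, 5.46, 5.40, 5.50 and 5.88 in APOE4. All 5 APOE4 animals were above the APOE3 mean, yet only replicates 1 and 5 were above every APOE3 animal, and the difference was 0.33 ± 0.20 log2 (SE; limma adjusted p = 0.703). Ddx58, which encodes RIG-I, differed by 0.16 ± 0.16 log2 and Ifih1, which encodes MDA5, by 0.02 ± 0.17 (SE). The Ifih1 difference became negative with centred arrays (-0.04), renewed quantile normalization (-0.03) or array weights (-0.01).

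The transcription factors of the pathway gave 4 of 4 tested, 4 with a higher APOE4 mean and 0 past the threshold, with a median difference of 0.17 log2. Irf7, which amplifies the type I response, was near the lower limit of measurement, with 3 of 10 arrays under 4: APOE3 livers were at 3.82, 4.36, 3.61, 4.20 and 4.38 and APOE4 livers at 5.07, 4.16, 3.82, 4.52 and 4.49. APOE4 replicates 1, 4 and 5 were above every APOE3 animal, APOE4 replicate 3 was near the bottom of the APOE3 range, and the difference of 0.34 ± 0.23 log2 (SE) had a limma adjusted p of 0.724. Stat2 and Irf9, partners in the complex that binds the ISRE, differed by 0.20 ± 0.15 and 0.14 ± 0.16 log2 (SE). Irf1, a factor known to be induced by interferon gamma and whose GAS is printed above, was at 7.79 ± 0.50 in APOE3 and 7.92 ± 0.34 in APOE4 (SD, n = 5 each).

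The antiviral effectors had 8 of 10 genes tested, of which 7 had a higher APOE4 mean and 0 passed. The median difference of 0.28 log2 was the largest of the roles with more than 1 tested gene, just above the ISG15 system (0.27). The mean deviation of these 8 genes from their own means over the 10 arrays was 0.80 log2 in APOE4 replicate 1. It was -0.39 to 0.42 in the other APOE4 animals and -0.45 to 0.34 in APOE3. Ifit1 encodes a protein that binds viral RNA ends and blocks its translation. It read 6.58, 8.07, 7.73, 7.39 and 7.93 in APOE3 and 8.38, 7.84, 7.53, 8.54 and 7.41 in APOE4. APOE4 replicates 1 and 4 were above every APOE3 animal, APOE3 replicate 1 was far below the rest, and the difference was 0.40 ± 0.30 log2 (SE; limma adjusted p = 0.755). Its neighbours on chromosome 19, Ifit2 and Ifit3, differed by 0.20 ± 0.33 and 0.16 ± 0.24 log2 (SE), and in both the single highest animal was APOE3 replicate 2.

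Oas1a makes the messenger that activates RNase L, while Oasl1 and Oasl2 encode related proteins. Oas1a was at 5.37, 6.19, 5.38, 6.48 and 5.59 in APOE3 and at 6.93, 5.95, 5.60, 6.27 and 5.98 in APOE4. Oasl1 was at 5.42, 5.71, 6.23, 5.28 and 5.85 against 6.72, 5.50, 5.92, 5.86 and 6.12. Oasl2 was at 4.84, 5.56, 4.28, 5.64 and 4.88 against 6.83, 5.15, 4.32, 5.52 and 4.97. In each of the 3 genes APOE4 replicate 1 was the highest of all animals and the only APOE4 animal above the APOE3 range. The differences were 0.34 ± 0.28, 0.32 ± 0.23 and 0.32 ± 0.42 log2 (SE; limma adjusted p = 0.767, 0.738 and 0.869), and that of Oasl2 became -0.05 without APOE4 replicate 1.

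Rsad2 encodes viperin, an enzyme that makes a chain-terminating nucleotide, and was at 7.55, 8.48, 8.24, 7.80 and 7.98 in APOE3 and at 8.62, 7.87, 7.53, 8.84 and 7.15 in APOE4. The APOE4 animals spanned the wider range, from the lowest to the highest value of all 10, and the difference was -0.01 ± 0.31 log2 (SE; limma adjusted p = 0.996). The other 2 Rsad2 probe sets differed by 0.30 log2 each, so its direction depends on the probe set. Bst2 encodes tetherin, which holds budding virus at the cell surface, and was at 10.67, 10.71, 10.52, 10.42 and 10.41 against 11.25, 10.72, 10.46, 10.86 and 10.66. APOE4 replicates 1, 2 and 4 were above every APOE3 animal, replicate 2 narrowly, and the difference was 0.24 ± 0.14 log2 (SE; limma adjusted p = 0.688). Mx1 and Mx2, dynamin-like GTPases that trap viral particles, stayed under 4 on all 10 arrays (2.87 to 3.74 and 2.00 to 2.65), where no difference can be read.

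In the ISG15 system, which attaches a ubiquitin-like protein to others, 2 of 3 genes were tested, both with a higher APOE4 mean and 0 past the threshold. Usp18 removes ISG15 and restrains the interferon receptor, and was at 7.55, 8.33, 8.04, 8.13 and 8.79 in APOE3 and at 8.80, 8.33, 8.04, 8.83 and 8.11 in APOE4. Herc6, the mouse ligase for ISG15, was at 4.92, 5.39, 5.13, 5.27 and 5.63 against 5.91, 5.75, 4.75, 5.96 and 5.35. APOE4 replicates 1 and 4 were the highest 2 animals in both genes, and APOE4 replicate 3 was the lowest in Herc6. The differences were 0.26 ± 0.23 log2 for Usp18 and 0.28 ± 0.23 for Herc6 (SE; limma adjusted p = 0.798 and 0.772).

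The GTPases that act in defence against pathogens held in vacuoles are for the most part strongly induced by interferon gamma. Of them 6 of 6 genes were tested, 5 had a higher APOE4 mean and 0 passed the threshold, with a median difference of 0.11 log2. Igtp was at 9.61, 10.05, 9.54, 9.70 and 9.89 in APOE3 and at 10.70, 9.73, 9.78, 10.16 and 9.90 in APOE4. Irgm1, which regulates other members, was at 8.14, 8.59, 8.61, 8.40 and 8.73 against 9.16, 8.25, 8.76, 8.86 and 8.59. In both, APOE4 replicate 1 was the highest animal and APOE4 replicate 2 sat among the APOE3 values. The differences were 0.29 ± 0.19 log2 for Igtp and 0.23 ± 0.17 for Irgm1 (SE; limma adjusted p = 0.708 and 0.743).

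Gbp2 and Gbp3 encode guanylate-binding proteins, which coat such vacuoles. Gbp2 was at 6.00, 7.03, 5.30, 6.54 and 6.07 in APOE3 and at 6.70, 6.18, 5.19, 6.07 and 5.55 in APOE4, a difference of -0.25 ± 0.34 log2 (SE; limma adjusted p = 0.869). Gbp3 was at 6.74, 7.79, 6.27, 7.28 and 6.98 against 7.64, 7.25, 6.47, 7.39 and 6.88, a difference of 0.11 ± 0.29 (limma adjusted p = 0.938). APOE3 replicate 2 was the highest animal in both genes, and replicate 3 was the lowest of its genotype in each. Ifi47 and Iigp1 differed by 0.10 ± 0.25 and 0.05 ± 0.14 log2 (SE). Iigp1, which disrupts parasite vacuoles, was at 11.86 ± 0.24 in APOE3 and 11.92 ± 0.19 in APOE4 (SD, n = 5 each), and its second probe set differed by -0.04, while the first turned to -0.0024 with centred arrays.

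Cxcl10, the chemokine of the set, draws T cells and NK cells into tissue. It was at 6.52, 7.75, 6.15, 6.42 and 6.21 in APOE3 and at 7.85, 6.40, 6.30, 6.98 and 5.70 in APOE4. Each genotype had 1 animal above 7, APOE3 replicate 2 and APOE4 replicate 1, and the difference was 0.03 ± 0.40 log2 (SE; limma adjusted p = 0.989), which became -0.02 with centred arrays or renewed quantile normalization and -0.03 with array weights.

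Among the further induced genes 6 of 7 were tested, 6 had a higher APOE4 mean and 0 passed, with a median difference of 0.16 log2. Ifi27l2a, a relative of Ifi27, was at 7.26, 8.16, 6.83, 8.23 and 7.15 in APOE3 and at 8.85, 7.52, 6.57, 8.25 and 6.87 in APOE4. Unlike Ifi27 it had its low animals in both genotypes, and the difference of 0.09 ± 0.44 log2 (SE; limma adjusted p = 0.971) became -0.22 without APOE4 replicate 1 and -0.04 with array weights. Parp14, an ADP-ribosyltransferase, was at 6.37, 7.38, 6.92, 7.30 and 6.50 against 7.29, 6.63, 6.99, 7.62 and 7.14, a difference of 0.24 ± 0.23 log2 (SE; limma adjusted p = 0.810), with -0.00 on its second probe set. Its groups overlap across most of their range. Rtp4, Xaf1 and Ifi35 differed by 0.20 ± 0.15, 0.12 ± 0.19 and 0.05 ± 0.12 log2 (SE), and Ifi35 turned to -0.01 with centred arrays. Of the 8 genes with several tested probe sets, 5 had the same direction on all of them, the exceptions being Rsad2, Iigp1 and Parp14.

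**Figure D3:**
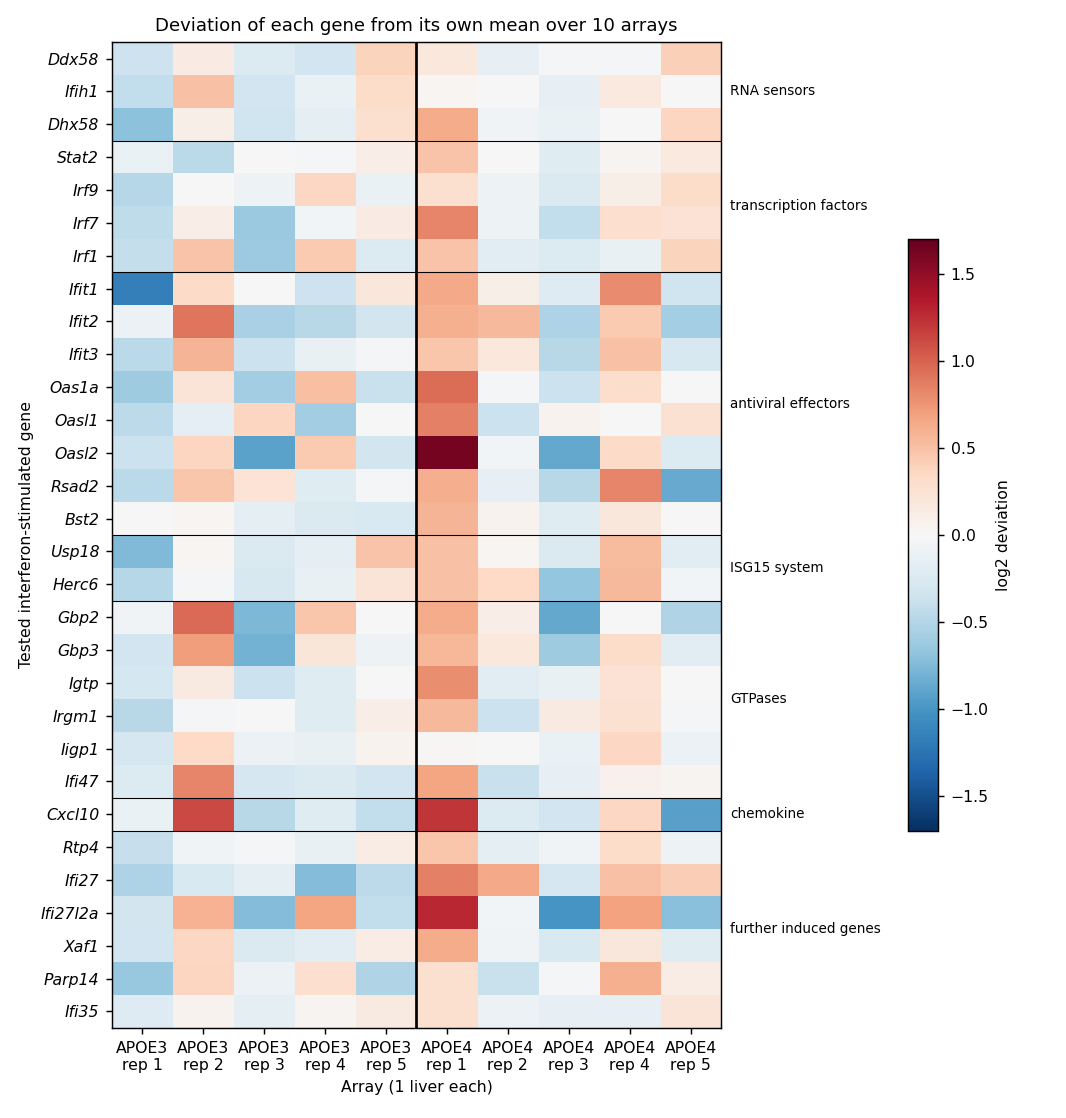
Log2 value of each of the 30 tested genes (rows, by role) on each array (columns, APOE3 then APOE4) minus the gene's mean over the 10 arrays, as colour. The column of APOE4 replicate 1 is above the mean in all 30 rows, and in those of APOE3 replicates 1 and 3 and APOE4 replicate 3 at most 2 rows are.

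Across animals the values of these genes were high or low together. In APOE4 replicate 1, 30 of 30 genes were above their own mean over the 10 arrays, and in APOE4 replicate 4 and APOE3 replicate 2 it was 25 and 23 of 30. At the other end, APOE3 replicate 1 had 1 of 30 genes above its mean, while APOE3 replicate 3 had 2 and APOE4 replicate 3 also had 2. The remaining animals were between these, with 9 in APOE3 replicate 4, 14 in APOE3 replicate 5, 11 in APOE4 replicate 2 and 12 in APOE4 replicate 5. Over all tested probe sets the share above their own mean was between 41.6% and 56.2% on every array. APOE4 replicate 1 held the highest value of all 10 for 16 genes, and APOE3 replicate 1 the lowest for 13.

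A score per animal, the mean over the 30 genes of the log2 value minus the gene's own mean, was -0.40, 0.29, -0.30, -0.05 and -0.04 in APOE3 and 0.62, -0.03, -0.31, 0.29 and -0.08 in APOE4. Each genotype thus had an animal near -0.3 or lower and an animal at 0.29. The group means were -0.10 ± 0.27 in APOE3 and 0.10 ± 0.36 in APOE4 (SD, n = 5 each), a difference of 0.20 log2 against a pooled SD within a genotype of 0.32. Without APOE4 replicate 1 the difference in score was 0.07, and without Ifi27 it was 0.18. In the fit without APOE4 replicate 1, 21 of 30 genes had a higher APOE4 mean. The share of all tested probe sets in that fit is not given here, so this count has no background to be read against. The score has no test, because its genes were chosen with results of these data known.

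**Figure D4:**
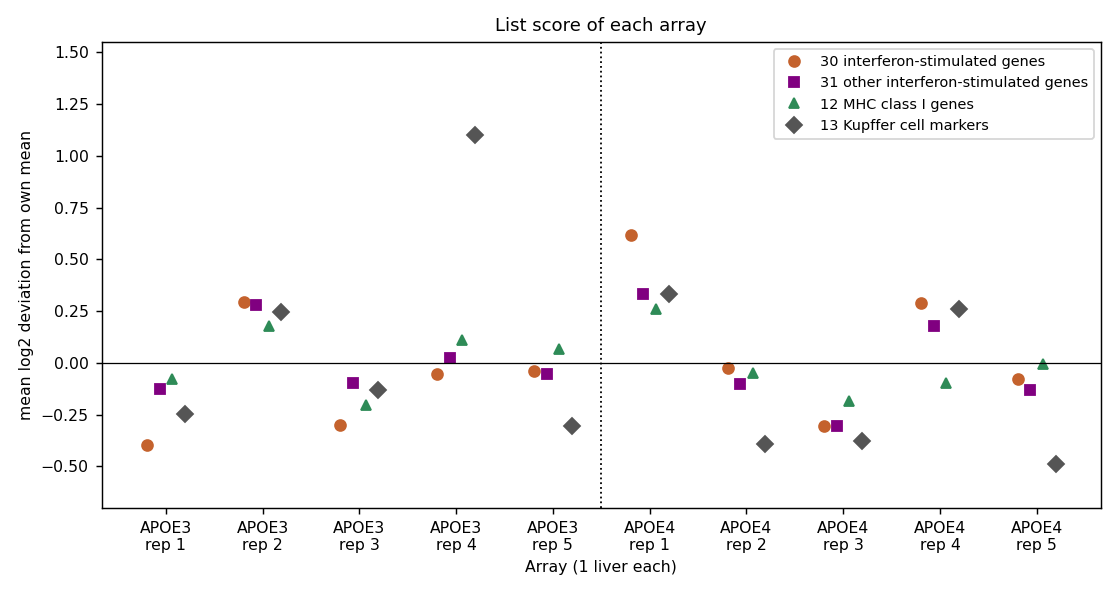
Score per mouse (y axis, mean log2 deviation) for the 30 interferon-stimulated genes, 31 other interferon-stimulated genes, 12 MHC class I genes and 13 Kupffer cell markers, 1 symbol per list and array (x axis). In the set of 30, APOE4 replicate 1 stands at 0.62, and the other APOE4 animals, from -0.31 to 0.29, fall within the APOE3 range of -0.40 to 0.29.

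The differences of genes with and without an ISRE match covered overlapping ranges. The 11 tested genes with a match had a median difference of 0.20 log2 (-0.25 to 0.40), and the 12 with a promoter and no match had 0.15 (0.02 to 0.34). The other tested genes, Ifi27 (0.85) among them, had no matched promoter and are in neither group. The Ifit1 and Gbp2 promoters printed above, both with an ISRE, belong to the genes at the opposite ends of the first range.

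A further list of 47 interferon-stimulated genes outside the set had 31 tested, 15 with a higher and 16 with a lower APOE4 mean, 0 past the adjusted threshold and a median difference of -0.00 log2 (12 higher with centred arrays or quantile normalization). At an unadjusted p under 0.05 in limma 1 of 31 was higher and 2 of 31 were lower, against 5.53% and 2.46% of all tested probe sets. The higher one was Parp9, the partner of Dtx3l in antiviral ADP-ribosylation (0.28 ± 0.10 log2, SE; limma adjusted p = 0.580). The lower ones were Ifi204, a DNA sensor, and Samd9l, a translation regulator (-0.51 ± 0.18 and -0.54 ± 0.21, SE; limma adjusted p = 0.571 and 0.583). The scores of this list were -0.13, 0.28, -0.10, 0.02 and -0.05 in APOE3 and 0.33, -0.10, -0.30, 0.18 and -0.13 in APOE4, highest in APOE4 replicate 1 and APOE3 replicate 2. An ISRE match was present in 14 of its 38 matched promoters (36.8%) and a GAS in 7 (18.4%).

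Upstream of the set, interferon receptors and signalling genes had 14 of 19 tested, 5 higher and 9 lower in APOE4, 0 past the threshold and a median of -0.06 log2. The smallest p-values belonged to Jak2 (-0.21), Pias1 (0.25) and Ifnar1 (0.21). Nucleic acid and bacterial sensing genes had 9 of 18 tested, 2 higher and 7 lower, with a median of -0.07. Among them Irf5, a factor downstream of Toll-like receptors, was at 4.96 ± 0.56 in APOE3 and 4.35 ± 0.32 in APOE4 (SD, n = 5 each; limma adjusted p = 0.588). Genes of MHC class I presentation, which interferon also induces, had 12 of 13 tested, 5 higher and 7 lower and a median of -0.01, with Psme1 at 0.32, Nlrc5 at -0.40 and Tap1 at -0.24. Inflammatory genes driven by NF-kB had 6 of 16 tested, 0 higher and 6 lower and a median of -0.27, with Birc3 at -0.20, Nfkbia at -0.17 and Nfkbie at -0.23. In limma 0 passed in any of these lists. Irf5 alone had an unadjusted p under 0.05 in limma, where 2.46% of all tested probe sets were lower in APOE4 at that level. With centred arrays the counts higher in APOE4 were 4 for signalling, 1 for sensing, 3 for MHC class I and 0 for NF-kB genes. The NF-kB score was highest in APOE3 replicate 2 (0.69), APOE3 replicate 4 (0.63) and APOE4 replicate 1 (0.48), of which the first and the last had high interferon scores.

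The tissue carried the markers of its label. Hepatocyte markers (9 of 10 measured) had a summed linear level of 126769 to 146760 in APOE3 and 134584 to 144846 in APOE4, with 5 of 9 higher in APOE4 (1 of 9 with centred arrays), and differed most by p in Cyp2e1 (-0.13), Hnf4a (-0.22) and Cps1 (-0.13). Sinusoidal endothelial markers (7 of 7) summed to 1705 to 2026 and 1749 to 2400, with 4 higher and Cdh5 at -0.34. Kupffer cell and macrophage markers (13 of 13) had 2 higher and 11 lower, and their sums ran from 8771 to 17263 in APOE3 and from 7680 to 13063 in APOE4. Their score was highest in APOE3 replicate 4 (1.10), an animal whose interferon score was -0.05, and next highest in APOE4 replicate 1 (0.33), APOE4 replicate 4 (0.26) and APOE3 replicate 2 (0.25), the 3 animals with the highest interferon scores. Cd163 (0.87), Marco (-1.90, with 7 of 10 arrays under 4) and Ctss (-0.26) had the smallest p-values of that list. APOE3 replicate 4 was the lowest of all animals in Cd163 (6.37) and the highest in Marco (9.99), so this animal weighs on both differences. Marco was next highest in APOE3 replicate 2 (6.62). It is part of the score and so weighs on the scores of APOE3 replicates 2 and 4.

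Lymphocyte, NK and plasmacytoid dendritic cell markers (10 of 12) summed to 180 to 584 in APOE3 and 166 to 367 in APOE4, and Cd3d, Cd3e, Cd4, Cd8a, Cd79a, Nkg7 and Siglech were under 4 on all arrays. Both tested markers were lower in APOE4, Ptprc by -0.41 log2 and Ms4a1 by -0.02. The score of this list rests on these 2 genes alone, so it gives no separate reading of the cell types named. It was highest in APOE4 replicate 1 (0.83) and APOE3 replicate 2 (0.81), also animals with high interferon scores. APOE3 replicate 4 came next (0.48), with an interferon score of -0.05. APOE4 replicate 4, with an interferon score of 0.29, was at 0.03. Ptprc was highest in APOE3 replicate 4 (9.01), the animal with the highest Kupffer cell and macrophage score. Ms4a1 was near the lower limit of measurement, under 4 on 3 APOE3 and 4 APOE4 arrays. Neutrophil markers (7 of 9) summed to 73.3 to 192 in APOE3 and 53.8 to 86.2 in APOE4, and Mpo, Elane, Ngp, Camp and Ltf were under 4 on all arrays. S100a8 was at 5.87 ± 0.82 in APOE3 and 4.86 ± 0.47 in APOE4 (SD, n = 5 each; limma adjusted p = 0.580), and S100a9 differed by -0.62, with 4 of 5 APOE4 arrays under 4. The 3′ minus 5′ control signals overlapped between genotypes (Actb 2.22 to 3.20 log2 in APOE3 and 2.46 to 2.97 in APOE4, Gapdh 0.20 to 0.73 and 0.30 to 0.62), and both were highest in APOE3 replicate 2 and APOE4 replicate 4. The median log2 value of the whole array did not overlap, at 2.638 to 2.671 in APOE3 and 2.613 to 2.637 in APOE4. The centring used here took a different median, that of the tested probe sets, and with it 24 of the 30 interferon-stimulated genes were higher in APOE4. The part of cell mixture and RNA quality in the interferon values was not tested. Apoe itself read 0.96 to 1.12 log2 in APOE3 and 1.00 to 1.19 in APOE4 on its probe sets, background in both genotypes, which carry no mouse Apoe.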

How the data were processed

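One-colour arrays measured the liver RNA of 10 mice. The authors' deposited unit is log2 expression. The submitters' processing notes name GCRMA 2.12.1 and R 2.7.1, a method that subtracts background according to probe sequence, quantile-normalizes the arrays and summarises each probe set, and leaves values under about 4 near background. The sources used here do not name a probe filter or genome build, and no scanner files were used. Depth does not apply to arrays, and their number limits the precision.

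Groups came from the sample titles, and 0 columns belonged to no sample. Of the array, 64 control probe sets were not used, and the 14732 whose log2 values averaged at least 4 were tested two-sided and without covariate by limma 3.58.1 (lmFit, eBayes; R 4.3.3), adjusted by Benjamini-Hochberg over all of them with a threshold of 0.05. The procedure was tested on simulated arrays with planted differences and noise independent between probe sets, whereas the interferon-stimulated genes varied together across animals. Genes were named from probe sets with a single symbol in the platform annotation. Figures were drawn with matplotlib 3.10.9 in Python 3.11.15.

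The members and lists (5 pathway lists, 5 marker lists) were chosen with earlier results of these data known. Values on every array are given for members with an unadjusted p under 0.05, filled to 14 with the largest differences and to 18 with the widest ranges. Of each other list, up to 5 genes with an unadjusted p under 0.05, otherwise the 3 with the smallest p, are named. Alternatives were 2 other filters, a trended robust eBayes, array weights, quantile normalization, centring, a floor at 4, 1 probe set per gene, the replicate number as a block, other ways to form the score, and leaving out each animal. The score without Ifi27 was chosen after seeing the data.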

Additional observations from a re-analysis of the deposited data

Results flagged for a closer look

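Among 62 groups of 5 values checked (30 genes and the score, in each genotype), 2 held an animal far from the others, where chance flags about 1 in 20. Both were APOE3 replicate 2. Ifi47 was at 9.56 log2 in that animal and at 8.50 in the next highest APOE3 animal. Cxcl10 was at 7.75 log2 there and at 6.52 in the next highest.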

How the results depend on the processing

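The count of tested probe sets past the adjusted threshold was 12, and 5 with a filter at a mean of 6. Leaving out 1 animal gave 8 to 14. The count of interferon-stimulated genes past it was 0 to 1 when 1 animal was left out, the 1 being Ifi27 without APOE4 replicate 3, and the count with an unadjusted p under 0.05 and a higher APOE4 mean was 1 to 4, with Ifi27 and Irgm1 without APOE4 replicate 2 and Ifi27, Irf7, Bst2 and Herc6 without APOE4 replicate 3. The count of genes with a higher APOE4 mean was 21 (without APOE4 replicate 1) to 29, and the score difference 0.069 to 0.30. For the unadjusted count and the count of higher means, the share of all tested probe sets in these fits is not given here. Those counts therefore have no background to be read against. Of 562 comparisons 36 changed direction, in 11 of 30 genes. With array weights Ifih1 was -0.0057, Cxcl10 -0.026 and Ifi27l2a -0.044. Quantile normalization gave Ifih1 -0.030 and Cxcl10 -0.017. Centring gave Ifih1 -0.037, Iigp1 -0.0024, Cxcl10 -0.023 and Ifi35 -0.0051. With 1 animal left out the range was -0.082 to 0.15 for Ifih1, -0.0074 to 0.27 for Irf1, -0.051 to 0.58 for Oasl2, -0.22 to 0.21 for Rsad2, -0.071 to 0.31 for Gbp3, -0.026 to 0.15 for Iigp1, -0.050 to 0.32 for Ifi47, -0.27 to 0.32 for Cxcl10, -0.22 to 0.35 for Ifi27l2a, -0.027 to 0.22 for Xaf1 and -0.012 to 0.095 for Ifi35. The cause was not tested. With the replicate number as a block, 11 probe sets and 0 interferon-stimulated genes passed, and the score difference stayed 0.20, with a higher APOE4 score in 2 of 5 pairs. The labels do not state a pairing, so the numbers were not taken to pair the animals. Deviations of same-numbered animals correlated at 0.002, 0.19, 0.41, -0.08 and 0.29, and 4 of 10 arrays correlated best with their own number. These values were not set against a chance level and do not decide whether the numbers mark pairs. The number of animals limits what can be read: the median SE of a difference over the 30 genes was 0.23 log2.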
